A study of Rattus norvegicus with 12 samples.

Results

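Interleukins are secreted proteins through which immune cells, glia and the vessel wall signal to one another, and each acts on a cell through matching receptor chains. The genes described here are every row of a rat cortex count matrix whose symbol begins with Il followed by a digit, which gave 77 of 17268 genes. The rule rests on names alone, so it takes in ligands, signalling receptors, decoy receptors, secreted antagonists and 1 gene that is neither ligand nor receptor, Il4i1, an amino acid oxidase named after interleukin 4. The 77 genes comprised 9 ligands and 9 receptor or binding protein genes of the IL-1 family, 14 genes of the IL-6 and IL-12 families, 17 genes of the common gamma chain and type 2 group, 4 of the common beta chain group, 11 of the IL-10 family, 10 of the IL-17 family and 3 others.

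RNA sequencing was performed on the cerebral cortex of 12 male Sprague Dawley rats in an embolic stroke study, with a single library from each rat and 3 rats per group. In Sham rats the neck vessels were dissected without a clot. Model rats received a blood clot, prepared from a donor rat, at the origin of the middle cerebral artery and no treatment. The rt-PA rats received the same clot and 10 mg/kg of recombinant tissue type plasminogen activator, an enzyme that dissolves clots, through the tail vein at 6 h. The rt-PA+Acu rats received the clot, acupuncture at the GV26 and PC6 points at 2 h and the same dose of rt-PA at 6 h. The sources differ on whether 1 or both forelimbs were needled, and no group with acupuncture without rt-PA was analysed here. The time of tissue collection for sequencing and the side of the cortex were not given in the sources used here. Since whole tissue was sequenced, fewer cells of a type and less RNA per cell cannot be told apart.

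The libraries held 11678450 to 13616935 counts each. A gene with 3 counts therefore had 0.208 to 0.262 CPM, where CPM is the count scaled to the TMM-adjusted library total. The neuron gene Rbfox3 was present in all libraries, with 1225 to 3805 counts. Model replicate 3 stood apart from its group in the ribosomal protein gene Rpl39, with 142 counts beside 747 and 793 in the other Model libraries. Rpl39 had 105 to 151 counts in Sham, 807 to 990 in rt-PA and 488 to 717 in rt-PA+Acu, and the cause was not tested. Values without Model replicate 3 are given for Il6, Il6r and Il2rg. P-values measure the spread between these 3 rats per group.

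Several of these genes share a design. The IL-1 ligands act through Il1r1 together with the accessory chain Il1rap, while the antagonist Il1rn occupies the receptor without signalling and the decoy Il1r2 binds ligand without passing a signal on. IL-6 and IL-11 bind their own alpha chains and then signal through the common chain gp130, the product of Il6st. After brain ischemia, IL-1 and IL-6 are among the best known early inflammatory signals, made by microglia, infiltrating leukocytes and vessel cells.

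The promoter sequences of 4 ligand genes that differed widely between groups are shown because such genes are classical targets of stress-induced transcription factors. They come from the RefSeq promoter table (build GRCr8) and run from 250 bases before to 50 bases after the start of the gene, written 5′ to 3′ on the strand of the gene. Of the 77 genes, 60 had an entry. Capitals mark every match to any of 4 motifs searched on both strands, the NF-kB type GGANTTTCC, the AP-1 type TGANTCA, the STAT type TTCNNNGAA and the C/EBP type TTGCNNAA. The windows lie at chr4:5894526-5894825 (minus strand) for Il6, chr1:78098372-78098671 (plus strand) for Il11, chr3:136989968-136990267 (minus strand) for Il1a and chr3:137036532-137036831 (minus strand) for Il1b.
Il6: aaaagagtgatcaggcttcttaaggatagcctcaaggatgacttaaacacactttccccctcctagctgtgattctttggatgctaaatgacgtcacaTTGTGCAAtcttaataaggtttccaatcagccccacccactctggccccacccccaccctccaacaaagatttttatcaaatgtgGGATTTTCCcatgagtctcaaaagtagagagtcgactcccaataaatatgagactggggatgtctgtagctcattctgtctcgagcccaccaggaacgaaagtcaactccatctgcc
Il11: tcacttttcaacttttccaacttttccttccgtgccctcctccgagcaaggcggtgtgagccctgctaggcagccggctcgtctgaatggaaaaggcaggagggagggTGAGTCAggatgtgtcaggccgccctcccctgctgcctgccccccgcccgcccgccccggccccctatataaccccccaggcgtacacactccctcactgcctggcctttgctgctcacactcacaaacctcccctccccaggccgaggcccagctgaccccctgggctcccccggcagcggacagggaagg
Il1a: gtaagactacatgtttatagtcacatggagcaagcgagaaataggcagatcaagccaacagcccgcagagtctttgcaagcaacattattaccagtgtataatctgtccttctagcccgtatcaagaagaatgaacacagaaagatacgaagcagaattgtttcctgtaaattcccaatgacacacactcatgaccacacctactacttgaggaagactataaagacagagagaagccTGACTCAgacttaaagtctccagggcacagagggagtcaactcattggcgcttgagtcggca
Il1b: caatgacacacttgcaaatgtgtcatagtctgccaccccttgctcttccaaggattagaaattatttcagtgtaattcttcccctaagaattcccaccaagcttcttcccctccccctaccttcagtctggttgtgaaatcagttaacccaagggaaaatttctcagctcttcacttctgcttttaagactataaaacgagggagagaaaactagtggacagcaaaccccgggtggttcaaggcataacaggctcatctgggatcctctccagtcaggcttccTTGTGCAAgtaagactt
The Il6 window held an NF-kB type match at position -67 and a C/EBP type match at position -152 from the start. Il11 held an AP-1 type match at -142, Il1a an AP-1 type match at -12 and Il1b a C/EBP type match at 34 bases past the start. Among 33469 promoters of this length, 1.28% held the NF-kB type, 7.33% the AP-1 type, 8.87% the STAT type and 10.6% the C/EBP type. Of the 67 windows of interleukin genes, some genes having more than 1, these motifs occurred in 3, 7, 6 and 11. A match is a run of letters in the window and was not tested as a binding site.

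Many interleukin genes were near the floor of detection in this tissue. No count was found in any library for 9 genes, which were Il17c, Il1f10, Il2, Il3, Il36a, Il36g, Il36rn, Il5 and Il9. Another 11 genes never exceeded 3 counts in a library, among them Il10, an anti-inflammatory cytokine, and Il4 and Il13, the type 2 cytokines. Il10 had 1, 1 and 3 counts in rt-PA and 0 in the other 9 libraries, and Il4 had at most 3 counts. At this depth, differences in these genes were not detectable. Of the 57 genes above 3 counts in some library, 41 had enough counts to be tested in at least 1 comparison, and the other 16 are named among the low genes further on. For the common gamma chain and type 2 group, the tested genes were Il2ra, Il2rb, Il2rg, Il4r, Il7r, Il13ra1, Il15ra and Il21r, all receptor chains.

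The summed level of the 77 genes differed by group. Sham had 478.6 ± 10.5 CPM and Model 918 ± 41.4, while rt-PA had 1174 ± 135 and rt-PA+Acu 502.6 ± 51.1 (mean ± SD, n = 3). Il6st alone supplied 32.9% to 45.4% of the interleukin counts of a library, so the sum is weighted towards that gene.

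**Figure D1:**
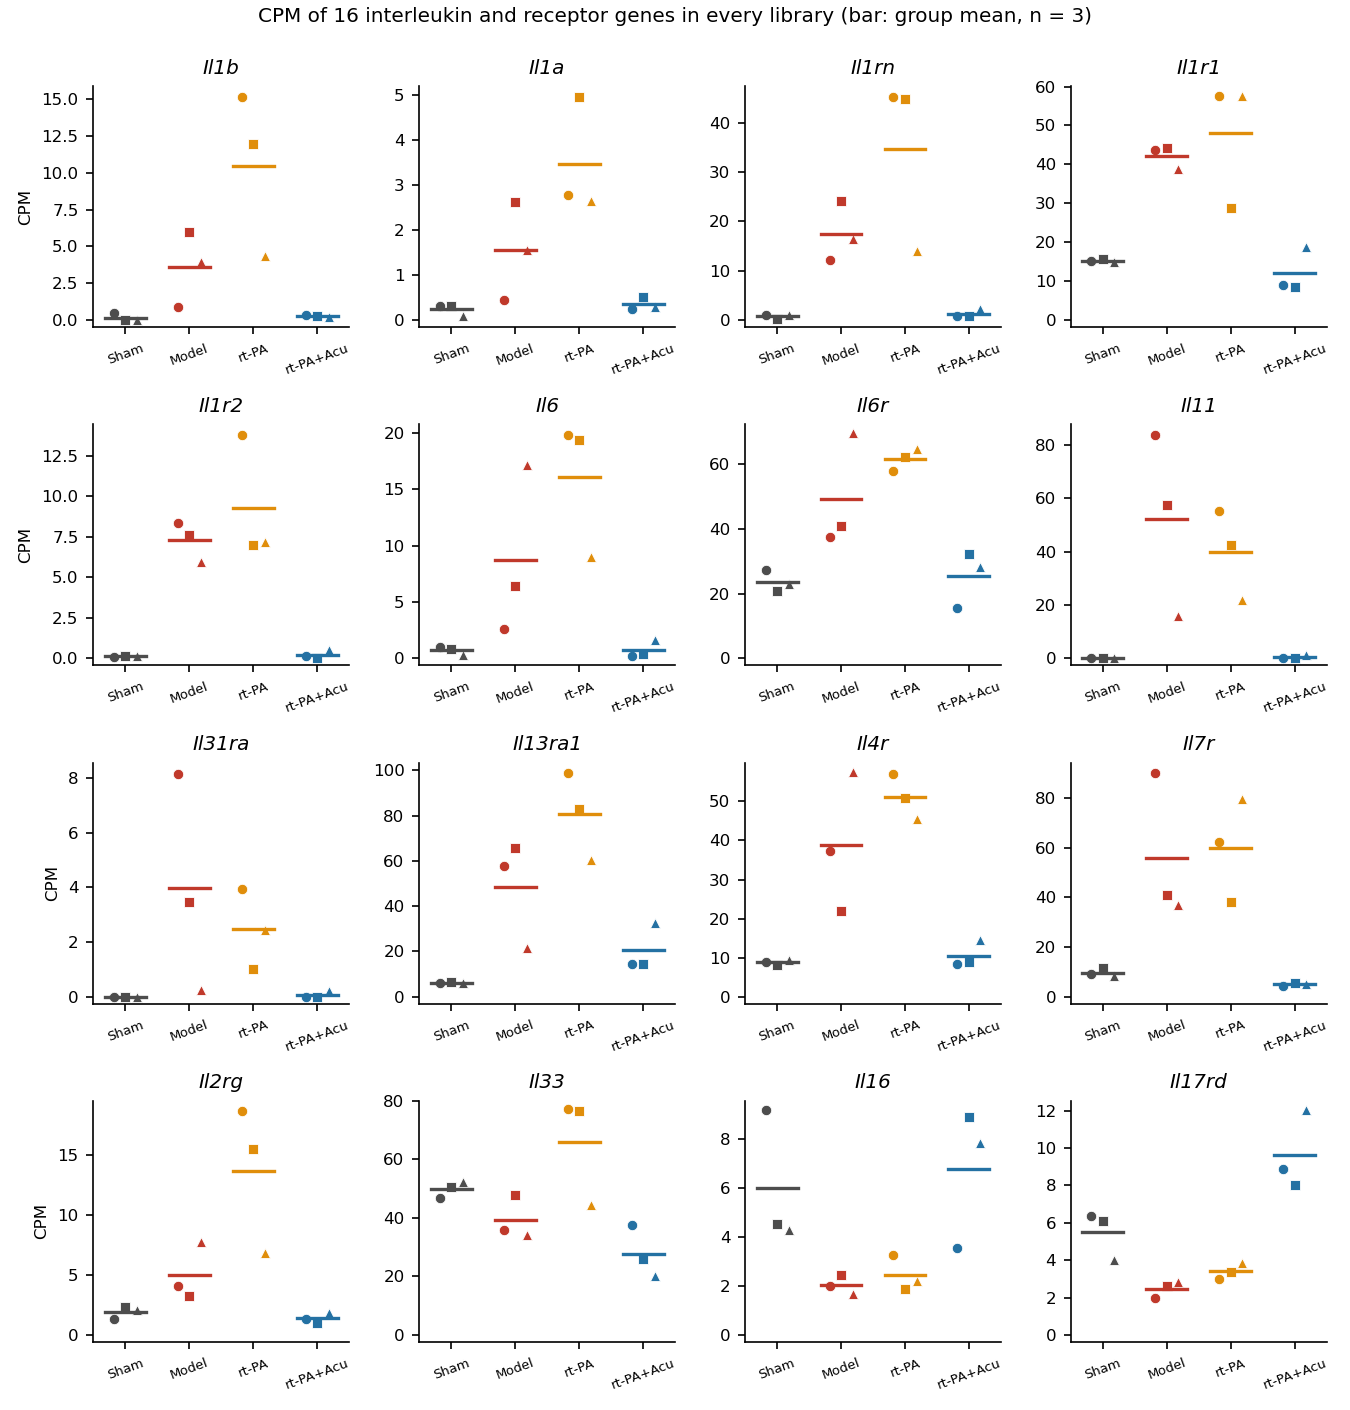
CPM (y axis) of 16 interleukin and receptor genes in each of 12 libraries (points, with circle, square and triangle for replicates 1, 2 and 3) and the mean of each group (bars, n = 3). Most genes were low in Sham and rt-PA+Acu and high in Model and rt-PA, whereas Il16 and Il17rd ran the other way and Il33 was highest in rt-PA replicates 1 and 2.

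The first comparison asked what the clot changed without treatment. In Model vs Sham, 35 of the 77 genes were tested, 17 were higher and 4 were lower, with an adjusted p under 0.05 and a change of more than 2-fold (edgeR quasi-likelihood test, p-values adjusted across all genes by Benjamini-Hochberg). That was 60% of those tested, beside 21.5% of all 12884 genes tested, 9.43% higher and 12% lower. The median log2 fold change was 0.799 for the interleukin genes and 0.0142 for all genes. Some of these genes, such as Il11 with 0 counts in Sham, were tested only through their Model counts. With at least 10 counts required in every library, the medians were 0.508 and 0.0136. The higher genes included Il1b, Il1rn, Il1r1, Il1r2, Il6, Il6r, Il11, Il4r, Il7r and Il13ra1. The lower ones were Il12a, Il16, Il17rd and Il1rapl2.

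Within the IL-1 ligands, Il1b and Il1rn rose after the clot. Il1b, which encodes the inflammatory cytokine interleukin 1 beta, had 6, 0 and 0 counts in Sham replicates 1 to 3 and 12, 71 and 48 counts in Model. The groups did not overlap, and the log2 fold change was 4.40 (SE 1.06, edgeR adjusted p = 0.00817). All Sham counts of Il1b lay in replicate 1, without which Model was at least 14.8-fold above the floor, and without Sham replicate 2 the log2 fold change was 3.80. Il1rn, the receptor antagonist, had 12, 3 and 13 counts in Sham against 159, 284 and 198 in Model, a log2 fold change of 4.50 (SE 0.461, edgeR adjusted p = 0.000134). Every Model library held more Il1rn counts than any Sham library. Il1a had 4, 4 and 1 counts in Sham and 6, 31 and 19 in Model and was too low to test. Il33, an alarmin stored in the nucleus of glia, did not pass in this comparison, at 49.8 ± 2.84 CPM in Sham and 39.3 ± 7.46 in Model (log2 fold change -0.34, edgeR adjusted p = 0.07).

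The IL-1 receptors moved unequally. Il1r1, the signalling receptor, had 188, 206 and 172 counts in Sham and 573, 522 and 471 in Model, with a log2 fold change of 1.47 (SE 0.111, edgeR adjusted p = 3.6e-05). Il1r2, the decoy, had 1, 2 and 2 counts in Sham and 109, 90 and 72 in Model. With so few Sham counts, the ratio of the groups was 54.1 with a 95% counting interval from 22.9 to 168 (edgeR adjusted p = 2.73e-05). Il1rap, the accessory chain, had the smallest of these changes, with a log2 fold change of 1.05 (SE 0.102, edgeR adjusted p = 0.000104), which lay just past the 2-fold limit and fell to 0.96 without Sham replicate 1.

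As a share of Il1r2 plus Il1r1 counts in the same library, Il1r2 took 0.529% to 1.15% in Sham and 13.3% to 16% in Model. The exact 95% interval of the highest Sham share ended at 4.09%, while that of the lowest Model share began at 10.5%. Intervals here cover counting error only. Shares in a pair of genes depend on transcript length, so they are compared across libraries and not between the genes. The same share for Il1rn in Il1rn plus Il1b was 80% to 93% in Model, and the Sham libraries held only 3 to 18 such counts.

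**Figure D2:**
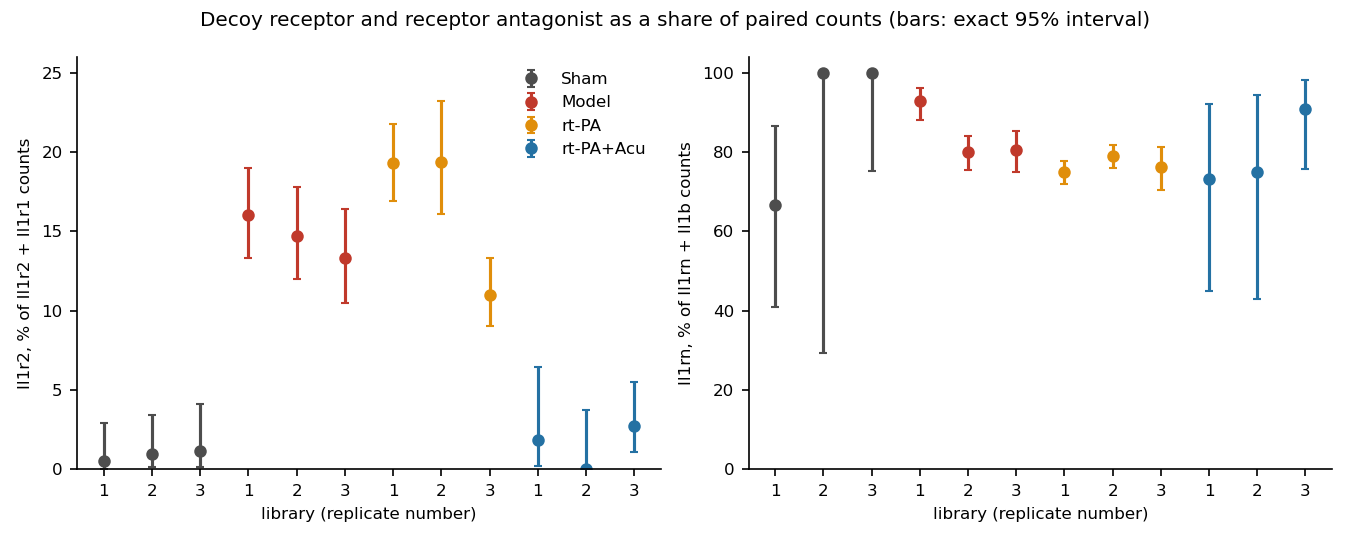
Share of Il1r2 in Il1r2 plus Il1r1 counts (left, percent) and of Il1rn in Il1rn plus Il1b counts (right, percent) for each library, with exact 95% intervals as bars. The Il1r2 share was at most 2.7% in all Sham and rt-PA+Acu libraries and at least 11% in all Model and rt-PA libraries, whereas the intervals of the Il1rn share were wide in Sham and rt-PA+Acu.

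Other receptors of the IL-1 family also rose. Il1rl2, the receptor of the interleukin 36 cytokines, had 3, 6 and 4 counts in Sham and 40, 34 and 36 in Model (log2 fold change 3.05, SE 0.39, edgeR adjusted p = 0.00037). Il18rap, the accessory chain of the interleukin 18 receptor, had 7, 9 and 3 counts in Sham and 52, 38 and 62 in Model (log2 fold change 2.99, SE 0.418, edgeR adjusted p = 0.000571). Neither gene overlapped between the groups. Il1rl1, the receptor of interleukin 33, did not pass, with 24 to 39 counts in Sham and 26 to 67 in Model (edgeR adjusted p = 0.201). Il1rapl2, a brain-expressed relative of Il1rap, went the other way with 37, 22 and 31 counts in Sham and 9, 8 and 11 in Model, and the log2 value fell by 1.68 (SE 0.393, edgeR adjusted p = 0.0072). In the RefSeq gene order, Il1r1, Il1rl2, Il1rl1, Il18r1 and Il18rap are neighbours in a run of 5 genes, of which Il18r1 was too low to test.

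The IL-6 family held Il11, the gene with the highest fold. Il11, a cytokine of stromal and other cells, had 0 counts in all 3 Sham libraries and 1093, 677 and 193 in Model, which was at least 214-fold higher against a floor of 3 counts per library (edgeR adjusted p = 0.000614). Il6 had 13, 11 and 3 counts in Sham and 34, 76 and 207 in Model, a log2 fold change of 3.57 (SE 0.752, edgeR adjusted p = 0.00439). Without Model replicate 3 the log2 fold change of Il6 was 2.62 (edgeR adjusted p = 0.0052). The Model libraries that were high in one were low in the other, since replicate 1 held the most Il11 and the least Il6 and replicate 3 the reverse. The treated groups did not share this pattern. In rt-PA both genes were highest in replicate 1 and lowest in replicate 3, and in rt-PA+Acu both were highest in replicate 3. Il6r, the alpha chain of the interleukin 6 receptor, had 264 to 338 counts in Sham and 493, 484 and 844 in Model (log2 fold change 1.06, SE 0.235, edgeR adjusted p = 0.0054). Without Model replicate 3 its log2 fold change was 0.74 and it was no longer past the 2-fold limit, as was also so without Sham replicate 2, at 0.97.

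Il6st, the common signal chain, did not reach 2-fold, although its difference was well resolved. It had 2167, 2337 and 2178 counts in Sham and 4143, 3787 and 3679 in Model, with a log2 fold change of 0.80 (SE 0.0778, edgeR adjusted p = 0.000105). Il31ra, an interleukin 31 receptor chain that lies beside Il6st in the gene order, had 0 counts in Sham and 107, 41 and 3 in Model and was too low to test in this pair. Its level in Model was at least 16.2-fold higher than the Sham floor, and that value rests on replicates 1 and 2. Il12a, a subunit of interleukin 12, was lower in Model, with 33, 24 and 21 counts in Sham and 8, 9 and 7 in Model (log2 fold change -1.68, SE 0.385, edgeR adjusted p = 0.00648).

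All 6 tested chains of the common gamma and type 2 group were higher in Model. Of these, Il2rb and Il15ra, with at most 5 counts in any Sham library, were tested only through their Model counts. Il21r of the same group was too low to test in this pair and went the other way, with 8 to 20 counts in Sham and 1 to 2 in Model. Il13ra1, a receptor chain of interleukins 4 and 13, had 73, 86 and 67 counts in Sham and 759, 775 and 262 in Model (log2 fold change 2.99, SE 0.389, edgeR adjusted p = 0.000398). Its partner Il4r had 110, 105 and 109 counts in Sham and 488, 258 and 696 in Model (log2 fold change 2.15, SE 0.321, edgeR adjusted p = 0.000791). Thus the lowest Model library was replicate 3 for Il13ra1 and replicate 2 for Il4r. Il7r, the interleukin 7 receptor of lymphocytes and other cells, had 113, 152 and 94 counts in Sham and 1179, 482 and 448 in Model (log2 fold change 2.54, SE 0.354, edgeR adjusted p = 0.000558).

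Chains borne by lymphoid cells were lower in count. Il2rb had 0, 1 and 3 counts in Sham and 50, 24 and 28 in Model, a ratio of 25.5 with a counting interval from 9.64 to 95.2 (edgeR adjusted p = 0.000967). That ratio of Il2rb was 16.9 without Sham replicate 1 and 70.3 without Sham replicate 3. Il2rg, the common gamma chain itself, had 16, 31 and 24 counts in Sham and 54, 38 and 94 in Model (log2 fold change 1.39, SE 0.412, edgeR adjusted p = 0.0203). The call for Il2rg was lost without Model replicate 3, where the edgeR adjusted p was 0.0562, and also without Sham replicate 1 or 3. Il15ra had only 2 to 5 counts in Sham and 10 to 12 in Model, and its call (edgeR adjusted p = 0.0258) was lost in 6 of 12 alternative settings, including those without Sham replicate 1 or 3 or without Model replicate 1 or 2, with an edgeR adjusted p of up to 0.0834.

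T cell markers were near the floor. The summed level of 6 T cell markers was 1.40 to 1.91 CPM in Sham and 2.31 to 3.13 in Model, without overlap, and 4 of the 6 stayed at or under 3 counts in every Model library. The 8 monocyte and macrophage markers summed to 121 to 186 CPM in Sham and 253 to 327 in Model. Most of that difference lay in Cd14, at 0.826 ± 0.344 CPM in Sham and 91.2 ± 13.3 in Model, and in Lyz2, at 54.2 ± 6.84 and 97.5 ± 24.1 CPM, and 2 of the 7 tested, Cd14 and Ccr2, were called higher. The 8 neutrophil markers overlapped in sum at 7.26 to 11.8 and 4.96 to 17 CPM, with Mpo at 0 in all libraries. Of the 4 tested, only Cxcr2 was called higher, with 3 to 11 counts in Sham and 16 to 31 in Model. The 6 microglia markers summed to 511 to 629 CPM in Sham and 384 to 447 in Model. Oligodendrocyte markers summed to 10300 to 15200 CPM in Sham and 1460 to 7320 in Model. Markers of meninges and fibroblasts were also lower in sum, at 178 to 259 and 48.8 to 105 CPM. Most of that difference lay in Pdgfra, at 169.9 ± 21.2 CPM in Sham and 45.4 ± 15.0 in Model, the only gene of this list called. Astrocyte markers were higher in sum, at 3200 to 3840 and 3990 to 5750 CPM. That rise lay in Gfap, at 391.3 ± 25.9 CPM in Sham and 3342 ± 806.4 in Model. Aqp4, Slc1a2 and Aldh1l1 were called lower, and Slc1a3 was lower without a call. The part of these cell types in the interleukin results was not tested.

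All 4 IL-17 family genes with enough counts to test were receptors. Il17rb, a receptor of interleukin 25, had 12, 2 and 3 counts in Sham and 54, 44 and 33 in Model (log2 fold change 2.92, SE 0.575, edgeR adjusted p = 0.00316). Without Sham replicate 1, which held most of the Sham counts, the log2 fold change of Il17rb was 4.04. Il17ra, the chain common to the family, had 361 to 536 counts in Sham and 664 to 727 in Model, and its log2 fold change of 0.61 was under the 2-fold limit (SE 0.119, edgeR adjusted p = 0.00288). Il17rd, also known as a brake on fibroblast growth factor signalling, had 79, 80 and 46 counts in Sham and 26, 31 and 34 in Model (log2 fold change -1.15, SE 0.292, edgeR adjusted p = 0.0105). Il17a, the namesake ligand, had 5, 0 and 2 counts in rt-PA and 0 in the other 9 libraries.

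Of the cytokines outside these families, Il16 fell. Il16, a chemoattractant for CD4-bearing cells, had 114, 59 and 49 counts in Sham and 26, 29 and 20 in Model (log2 fold change -1.55, SE 0.376, edgeR adjusted p = 0.00851). Il34, a ligand of the microglial receptor Csf1r made largely by neurons, had 388 to 505 counts in Sham and 222 to 284 in Model. Its groups did not overlap, but the log2 fold change of -0.82 did not pass the 2-fold limit (SE 0.141, edgeR adjusted p = 0.00163). Groups did not overlap for 20 tested interleukin genes that were higher and 5 that were lower in Model, beside 32.2% and 31.4% of all genes.

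The second comparison asked whether delayed rt-PA changed the untreated stroke profile. In rt-PA vs Model, 0 of 39 tested interleukin genes passed, beside 0% of all genes in the edgeR test, and DESeq2 also called 0 of them. At an unadjusted p under 0.05 and more than 2-fold, 2 of the 39 were past the limit, Il1b and Il2rg, beside 1.86% of all genes. The smallest adjusted p was 0.362, for Il6st (edgeR).

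Several members were nonetheless numerically higher in rt-PA. Il1b had 218, 166 and 59 counts in rt-PA beside 12, 71 and 48 in Model, with a log2 fold change of 1.53 (SE 0.652, edgeR adjusted p = 0.5). Il2rg had 269, 216 and 93 counts beside 54, 38 and 94 (log2 fold change 1.44, SE 0.446, edgeR adjusted p = 0.376). Both genes overlapped between the groups through rt-PA replicate 3. Il1rn, at 651, 622 and 189 counts in rt-PA, and Il33, at 1113, 1066 and 602, had the same order, with replicate 3 lowest (edgeR adjusted p = 0.512 and 0.376). That order did not hold for every member, as Il1r1 had 828, 402 and 782 counts in rt-PA.

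Neutrophil markers were also lowest in replicate 3 among the rt-PA libraries. They summed to 81.8, 34.6 and 15 CPM in rt-PA replicates 1, 2 and 3, beside 4.96 to 17 CPM in Model. Monocyte and macrophage markers summed to 397 to 634 CPM in rt-PA, above the 253 to 327 CPM in Model, and T cell markers to 2.66 to 7.77 CPM. Part of the monocyte and macrophage sum was Vcan, at 157.7 ± 16.4 CPM in rt-PA and 88.4 ± 4.07 in Model. Markers of meninges and fibroblasts had the largest median log2 fold change of the marker lists, 2.11, with sums of 105 to 332 CPM beside 48.8 to 105 in Model. No marker gene was called in rt-PA vs Model by the edgeR test. The part of these cells in the interleukin values was not tested. The groups did not overlap for 5 interleukin genes that were higher and 0 that were lower in rt-PA, beside 7.85% and 8.06% of all genes. They were Il1a, Il6st, Il17ra, Il17rd and Il1rapl2. Il6st had 6812, 5258 and 5152 counts in rt-PA beside 3679 to 4143 in Model (log2 fold change 0.39, SE 0.111).

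The rt-PA group was also set against Sham. In rt-PA vs Sham, 21 of 38 tested interleukin genes were higher and 2 were lower, 60.5% beside 22.6% of all genes (11% higher and 11.6% lower). Il11 was at least 163-fold higher than the Sham floor with 796, 591 and 295 counts, and Il31ra, with 57, 14 and 33 counts, at least 10.1-fold. Il13ra1 had a log2 fold change of 3.70 (SE 0.199, edgeR adjusted p = 1.42e-05) and Il4r one of 2.52 (SE 0.13, edgeR adjusted p = 1.24e-05). Il1a (log2 fold change 3.77), Il18 (1.13), Il31ra and Il6st (1.16) passed here. In Model vs Sham, Il18 and Il6st were not called and Il1a and Il31ra were too low to test. Whether rt-PA and Model differed in them is the test of rt-PA vs Model itself, in which the edgeR adjusted p was 0.546 for Il1a, 0.459 for Il18, 0.853 for Il31ra and 0.362 for Il6st. Both comparisons use the same Sham libraries.

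The third comparison asked what acupuncture before rt-PA changed relative to rt-PA alone. In rt-PA+Acu vs rt-PA, 37 interleukin genes were tested, 19 were lower and 2 were higher. That was 56.8% of those tested, beside 15.3% of all 12999 genes tested, 8.16% lower and 7.17% higher. The median log2 fold change was -1.25 for the interleukin genes and -0.00273 for all genes. With at least 10 counts required in every library, the medians were -0.941 and 0.00884. All 5 tested IL-1 ligands were lower, as were 5 of 7 tested chains of the common gamma and type 2 group, 4 of 8 genes of the IL-6 and IL-12 families, 3 of 8 IL-1 receptors and 2 of 4 IL-17 receptors. These tallies include genes tested only through their rt-PA counts, such as Il1a, Il1b and Il2rb. Those 3 genes had at most 6 counts in any rt-PA+Acu library.

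**Figure D3:**
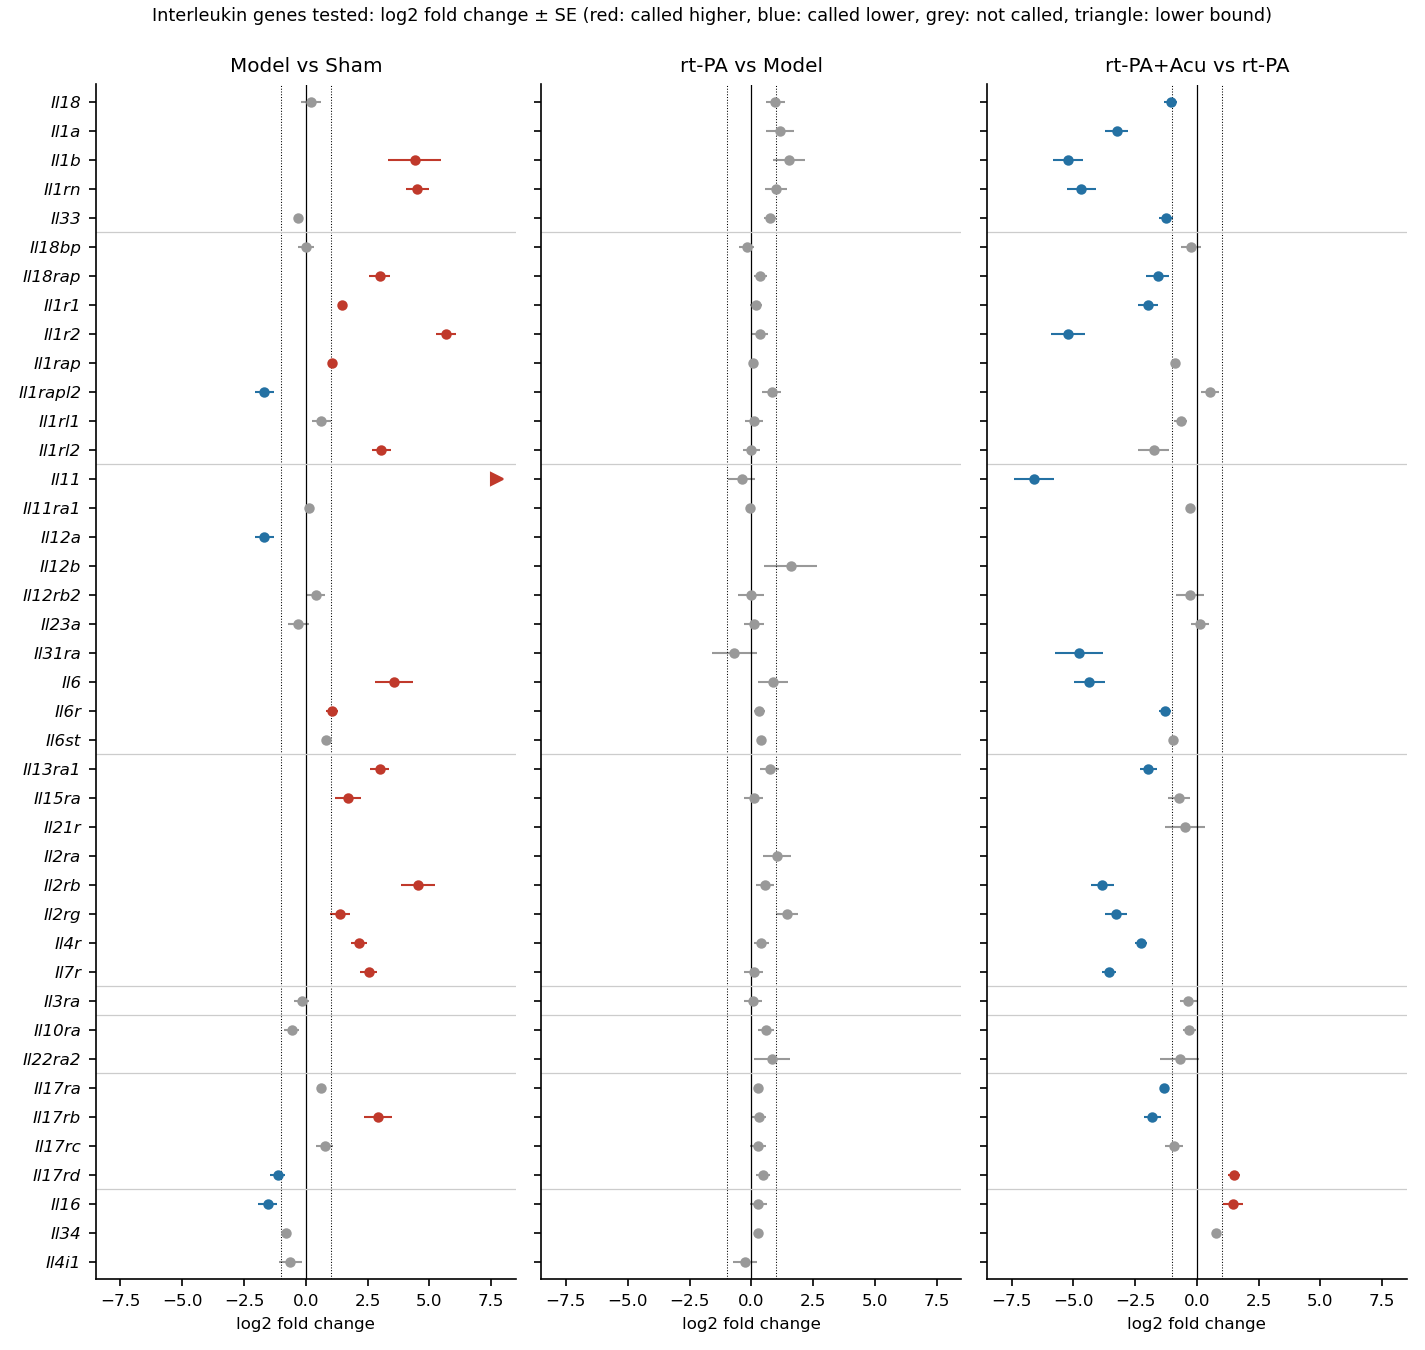
Log2 fold change (x axis, with SE as bars) of each interleukin gene tested, with 1 panel for each comparison (left, Model vs Sham; middle, rt-PA vs Model; right, rt-PA+Acu vs rt-PA), genes grouped by family and dotted lines at 2-fold. Red and blue points were called higher and lower, grey points were not called, and the triangle is the lower bound of Il11 against 3 counts per library. Fitted values of Il1r2 and Il2rb in Model vs Sham and of Il31ra in rt-PA+Acu vs rt-PA rest on groups with at most 3 counts per library. Most called genes are red on the left and blue on the right, and no gene is called in the middle.

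The IL-1 ligands were lower with acupuncture. Il1b had 4, 3 and 3 counts in rt-PA+Acu beside 218, 166 and 59 in rt-PA, and its log2 value fell by 5.21 (SE 0.593, edgeR adjusted p = 0.00163). Il1rn had 11, 9 and 30 counts beside 651, 622 and 189 and fell by 4.67 on the log2 scale (SE 0.585, edgeR adjusted p = 0.0021). Without rt-PA+Acu replicate 3 the log2 fold change of Il1rn was -5.31. All rt-PA+Acu libraries for Il1b, and all but replicate 3 for Il1rn, lay within the range of counts seen in Sham. Il1a had 3, 6 and 4 counts beside 40, 69 and 36 and fell by 3.25 on the log2 scale (SE 0.47, edgeR adjusted p = 0.00339).

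Il18 and Il33 changed less. Il18, which needs cleavage by caspase-1 to act, had 31, 37 and 56 counts in rt-PA+Acu and 109, 110 and 75 in rt-PA (log2 fold change -1.06, SE 0.274, edgeR adjusted p = 0.0219). Its call was lost in 5 of 13 alternative settings, including those without rt-PA replicate 1 or 2 or without rt-PA+Acu replicate 1 or 2, with an edgeR adjusted p of up to 0.0745. Il33 had 445, 298 and 268 counts in rt-PA+Acu and 1113, 1066 and 602 in rt-PA (log2 fold change -1.25, SE 0.283, edgeR adjusted p = 0.0141), and its call was lost without rt-PA+Acu replicate 2 (edgeR adjusted p = 0.0556).

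For the IL-1 receptors, Il1r2 had 2, 0 and 7 counts in rt-PA+Acu beside 198, 97 and 97 in rt-PA and fell by 5.21 on the log2 scale (SE 0.682, edgeR adjusted p = 0.00245). Without rt-PA+Acu replicate 3, the ratio of rt-PA to rt-PA+Acu for Il1r2 was 109 with a counting interval from 30 to 904. Il1r1 had 107, 97 and 252 counts beside 828, 402 and 782 (log2 fold change -1.98, SE 0.386, edgeR adjusted p = 0.00849). The Il1r2 share of their sum was 11% to 19.4% in rt-PA and 0% to 2.7% in rt-PA+Acu, where 0 of 97 counts had an upper exact bound of 3.73%. Il1rap had 942 to 1397 counts in rt-PA and 497 to 591 in rt-PA+Acu without overlap, but its log2 fold change of -0.91 was under the 2-fold limit (SE 0.161, edgeR adjusted p = 0.00635). Il18rap was lower (log2 fold change -1.59, SE 0.46, edgeR adjusted p = 0.0318). The edgeR adjusted p of Il18rap was up to 0.0928 without rt-PA replicate 1 or 3 or without rt-PA+Acu replicate 1 or 2. Il1rl2, at 2, 15 and 15 counts beside 60, 39 and 25, did not pass (edgeR adjusted p = 0.0633).

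Il11 had the largest log2 change of the IL-6 family. It had 0, 0 and 15 counts in rt-PA+Acu beside 796, 591 and 295 in rt-PA and fell by 6.59 on the log2 scale (SE 0.826, edgeR adjusted p = 0.0021). All rt-PA+Acu counts of Il11 lay in replicate 3, without which the group was at least 155-fold lower by the floor of 3 counts per library. Il6 had 3, 4 and 22 counts beside 285, 269 and 122 and fell by 4.35 (SE 0.624, edgeR adjusted p = 0.00324). Without rt-PA+Acu replicate 3 the log2 fold change of Il6 was -5.69. For both, replicate 3 was the highest rt-PA+Acu library and the lowest rt-PA library was still above it. Il31ra had 0, 0 and 3 counts in rt-PA+Acu, a ratio of 30.4 with a counting interval from 10.1 to 150 in favour of rt-PA (edgeR adjusted p = 0.00943). Without replicate 3, Il31ra was at least 9.58-fold lower in rt-PA+Acu. Il6r fell by 1.28 on the log2 scale (SE 0.248, edgeR adjusted p = 0.00839), and Il6st, with 2588, 2057 and 3215 counts beside 6812, 5258 and 5152, had a log2 fold change of -0.95 that did not reach 2-fold (SE 0.153, edgeR adjusted p = 0.00472).

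In the common gamma and type 2 group, Il7r had 53, 64 and 68 counts in rt-PA+Acu beside 896, 531 and 1077 in rt-PA (log2 fold change -3.57, SE 0.289, edgeR adjusted p = 0.00104). Il2rb fell by 3.83 (SE 0.468, edgeR adjusted p = 0.00197) and Il2rg by 3.28 on the log2 scale (SE 0.443, edgeR adjusted p = 0.00271). In each of these genes every rt-PA+Acu library was below every rt-PA library. Il4r had 98, 101 and 195 counts beside 822, 707 and 617 (log2 fold change -2.27, SE 0.235, edgeR adjusted p = 0.00133). Il13ra1 had 174, 166 and 436 counts beside 1425, 1157 and 818 (log2 fold change -1.97, SE 0.347, edgeR adjusted p = 0.00623). Il15ra did not pass (edgeR adjusted p = 0.253).

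Il16 and Il17rd were higher with acupuncture. Il17rd had 105, 92 and 161 counts in rt-PA+Acu and 43, 47 and 52 in rt-PA (log2 fold change 1.50, SE 0.245, edgeR adjusted p = 0.00485). Il16 had 42, 102 and 105 counts beside 47, 26 and 30 (log2 fold change 1.46, SE 0.404, edgeR adjusted p = 0.0275). On the CPM scale the lowest rt-PA+Acu library, at 3.54, lay just above the highest rt-PA library, at 3.26, and the call for Il16 was lost in 5 of 13 alternative settings, including those without rt-PA replicate 2 or 3 or without rt-PA+Acu replicate 2 or 3, with an edgeR adjusted p of up to 0.0989. Il34 had 393, 544 and 629 counts beside 334, 403 and 308, groups that were separate on the CPM scale, and a log2 fold change of 0.77 that did not reach 2-fold (SE 0.179, edgeR adjusted p = 0.0153). Among the other IL-17 receptors, Il17ra had 368, 309 and 327 counts beside 1024, 920 and 918 (log2 fold change -1.31, SE 0.121, edgeR adjusted p = 0.00114) and Il17rb had 13, 11 and 22 beside 69, 45 and 69 (log2 fold change -1.81, SE 0.351, edgeR adjusted p = 0.00839).

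Groups did not overlap for 24 interleukin genes that were lower and 3 that were higher, beside 26.7% and 24.4% of all genes.

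Summed markers of neutrophils, of monocytes and macrophages and of endothelial cells were lower in rt-PA+Acu too. Neutrophil markers summed to 3.66 to 5.48 CPM in rt-PA+Acu beside 15 to 81.8 in rt-PA, with 4 of 8 at or under 3 counts in every rt-PA+Acu library. Monocyte and macrophage markers summed to 110 to 134 CPM beside 397 to 634, and endothelial markers to 75.7 to 81.1 CPM beside 196 to 258. Microglia markers, at 418 to 464 and 384 to 436 CPM, and T cell markers, at 1.01 to 2.69 and 2.66 to 7.77 CPM, overlapped between the groups. The part of these cell types in the interleukin differences was not tested.

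**Figure D4:**
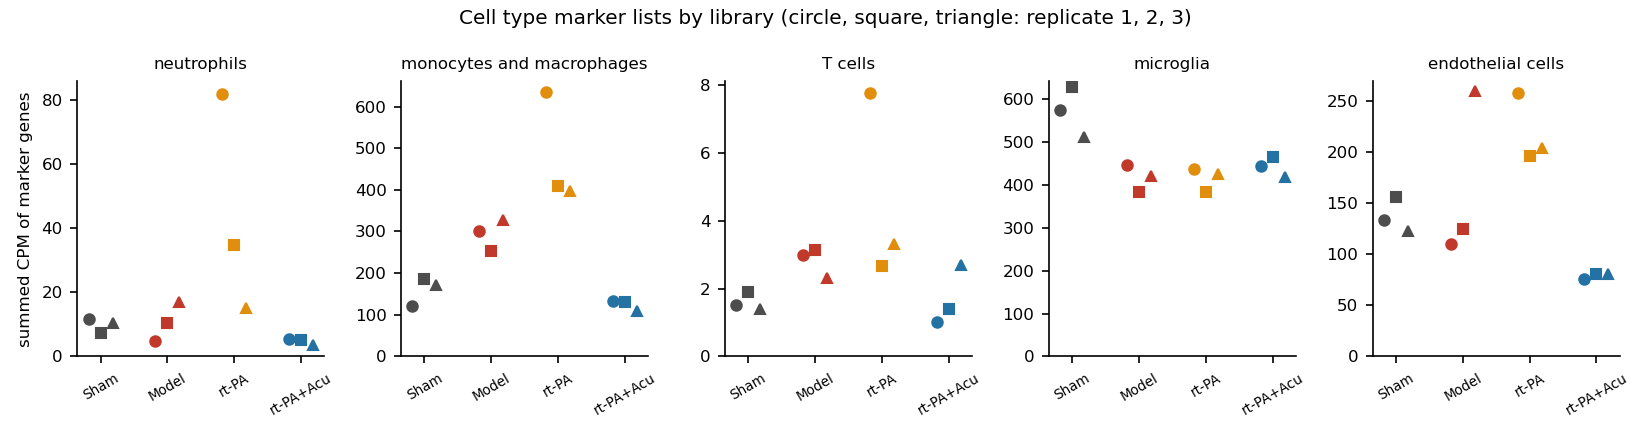
Summed CPM (y axis, its own scale in each panel) of marker genes of neutrophils, monocytes and macrophages, T cells, microglia and endothelial cells in each of 12 libraries, with the point shape giving the replicate. Neutrophil and monocyte and macrophage markers were highest in rt-PA replicate 1, at 81.8 and 634 CPM, and lowest in rt-PA+Acu.

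The clot comparison (Model vs Sham) and the acupuncture comparison (rt-PA+Acu vs rt-PA) share no library, so their calls can be laid side by side. Of the 17 genes higher in Model and the 19 lower in rt-PA+Acu, 14 were in both lists, which is 82.4% of the first and 73.7% of the second. Over all genes, 696 were in both lists, 57.3% of the 1215 higher in Model and 65.6% of the 1061 lower in rt-PA+Acu, so most genes of these lists, interleukin or not, were in both. The 14 were Il1b, Il1rn, Il1r1, Il1r2, Il18rap, Il6, Il6r, Il11, Il2rb, Il2rg, Il4r, Il7r, Il13ra1 and Il17rb. Of the 4 genes lower in Model, Il16 and Il17rd were the 2 genes higher in rt-PA+Acu, beside 751 such genes over all, 48.5% of those lower in Model and 80.6% of those higher in rt-PA+Acu. The other 3 genes higher in Model, Il15ra, Il1rap and Il1rl2, were not called between rt-PA+Acu and rt-PA, and Il17ra, Il18 and Il33 were lower in rt-PA+Acu without a call in Model vs Sham. A group of 10 genes was tested in all 3 comparisons and called in none, among them Il10ra and Il11ra1, the receptor chains of interleukins 10 and 11, Il18bp, the binding protein of interleukin 18, and Il3ra. Il11ra1 held between 179 and 341 counts in all libraries, Il10ra between 43 and 128 and Il18bp between 16 and 43. Il10rb, the other interleukin 10 receptor chain, never exceeded 3 counts, and Il1rapl1 was not analysed here.

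**Figure D5:**
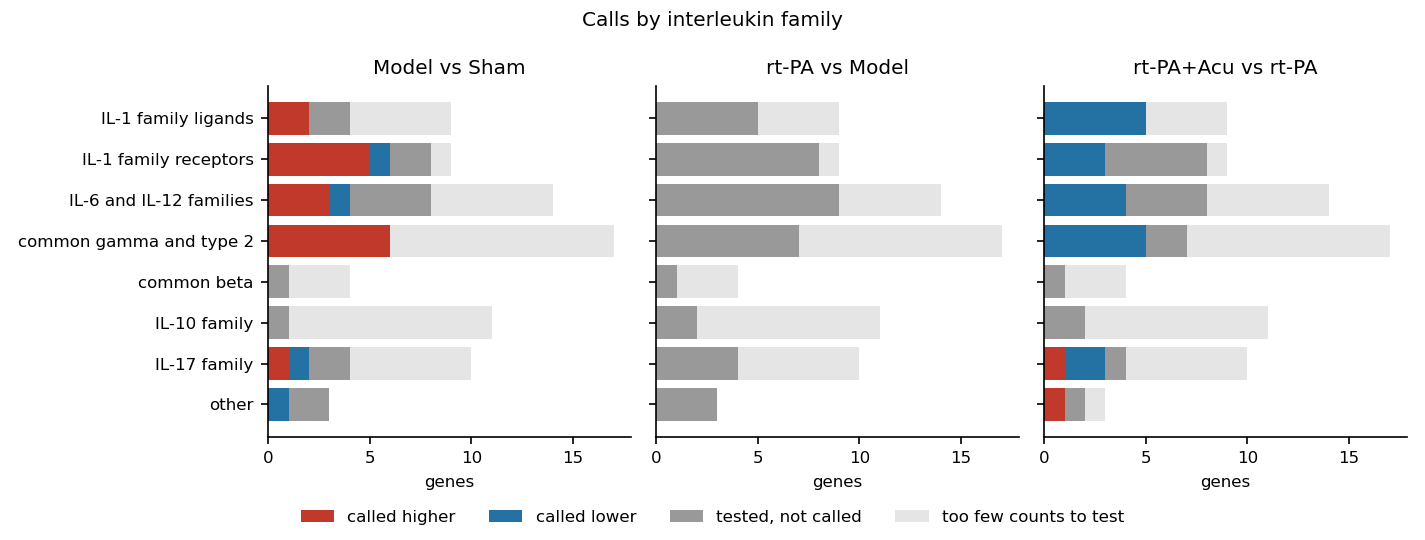
Number of interleukin genes (x axis) in each family that were called higher, called lower, tested without a call, or too low to test in 3 comparisons. The common gamma and type 2 group had 6 genes called higher after the clot and 5 called lower with acupuncture, and 0 genes were called in rt-PA vs Model.

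A further comparison, rt-PA+Acu vs Sham, gave what separated treated stroke from surgery without a clot. Of 29 interleukin genes tested, 1 was called, Il13ra1, which was higher. That is 3.45%, beside 2.06% of all genes, 0.916% higher and 1.14% lower. At an unadjusted p under 0.05 and more than 2-fold, 2 were past the limit, Il13ra1 and Il4i1, beside 4.56% of all genes. Il13ra1 had 174, 166 and 436 counts in rt-PA+Acu and 73, 86 and 67 in Sham, a log2 fold change of 1.76 (SE 0.334, edgeR adjusted p = 0.0272). The call was lost when any 1 of the 3 Sham libraries was left out, with an edgeR adjusted p of up to 0.124. Il7r was lower in rt-PA+Acu in every library, at 53 to 68 counts beside 94 to 152 in Sham, and just missed 2-fold with a log2 fold change of -0.94 (SE 0.212, edgeR adjusted p = 0.0461). Il33 was likewise below Sham without overlap (log2 fold change -0.85, SE 0.203, edgeR adjusted p = 0.0545). Il17rd lay above Sham without overlap, at 92 to 161 beside 46 to 80 counts (log2 fold change 0.81, SE 0.256, edgeR adjusted p = 0.111). A p above the threshold does not show that the groups were alike.

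Genes of the signalling pathways around these receptors, and of the inflammasome that processes IL-1 beta and IL-18, were described from the same fits. Of 14 genes of IL-1 signalling in the table, 4 were higher in Model vs Sham (Irak3, Myd88, Nfkbiz and Pycard) and 5 passed as lower for rt-PA+Acu vs rt-PA (Irak3, Myd88, Nfkbia, Nfkbiz and Sigirr). Myd88, the adaptor of the IL-1 receptors, rose after the clot by a log2 fold change of 2.41 (SE 0.206, edgeR adjusted p = 5.81e-05). With acupuncture it fell by 2.10 on the log2 scale relative to rt-PA (SE 0.318, edgeR adjusted p = 0.00393). Of 12 JAK-STAT genes, 7 were higher after the clot and 6 were lower with acupuncture. Of these 6, Stat3 (log2 fold change -1.26) lost its call without rt-PA replicate 1 or 3 or without rt-PA+Acu replicate 1 or 2, with an edgeR adjusted p of up to 0.0848. Socs3, an inhibitor of gp130 signalling that is itself induced by it, had 29 to 49 counts in Sham and 33 to 380 in rt-PA+Acu, beside 1584 to 2335 in Model and 1695 to 2834 in rt-PA. The Socs3 log2 fold change for Model vs Sham was 5.68 (SE 0.206, edgeR adjusted p = 3.41e-06). For rt-PA+Acu vs rt-PA it was -3.65 (SE 0.747, edgeR adjusted p = 0.00992), and -5.24 without rt-PA+Acu replicate 3, the highest library of its group.

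A further list of 9 genes held relatives of the IL-6 family and Csf2rb, the gene of the common beta chain. Of these, Csf2rb, Lif, Osm and Osmr were higher after the clot and lower with acupuncture, and Cntfr was lower after the clot. The Cntfr call (log2 fold change -1.04) was just past 2-fold and was lost in 3 of 13 alternative settings, at -0.98 without Model replicate 1 and -0.96 without Model replicate 2. Osmr, which pairs with gp130 to bind oncostatin M, had 64 to 96 counts in Sham and 37 to 205 in rt-PA+Acu, beside 692 to 732 in Model and 648 to 1221 in rt-PA. After the clot its log2 fold change was 3.10 (SE 0.184, edgeR adjusted p = 1.45e-05). None of the 35 pathway genes tested passed in rt-PA vs Model by the edgeR test, in which 0 of all genes passed. Irak1 and Clcf1 were not analysed here.

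A few genes that were too low to test in most comparisons had uneven counts. Il12b, the p40 subunit of interleukins 12 and 23, had 0 counts in Sham and 0, 1 and 0 in rt-PA+Acu, beside 1, 11 and 7 in Model and 51, 2 and 14 in rt-PA. In the single pair where it was tested, rt-PA vs Model, it did not pass (edgeR adjusted p = 0.677). Il21r, a receptor next to Il4r in the gene order, had 9, 20 and 8 counts in Sham and 1, 2 and 1 in Model, beside 45, 7 and 5 with rt-PA alone and 16, 11 and 8 with acupuncture. Sham exceeded Model with a ratio of 9.27 and a counting interval from 3.33 to 35.8, and 1 rt-PA library held most of the counts of its group. Il21r did not pass in the comparisons that tested it, those of rt-PA+Acu with rt-PA (edgeR adjusted p = 0.679) and with Sham (edgeR adjusted p = 0.968). Il18r1 had 1 to 2 counts in Sham and 3, 11 and 12 in Model, a ratio of 6.49 with an interval from 2.25 to 25.6. Il15 had 4 to 23 counts in all libraries. The other untested genes with more than 3 counts in a library were Il7, Il13ra2, Il17a, Il17b, Il17f, Il17re, Il20ra, Il20rb, Il21, Il22, Il23r, Il24, Il25 and Il27ra.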

How the data were processed

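Poly(A) RNA from the cerebral cortex of 12 male rats was sequenced as paired reads of 150 bases. The authors aligned the reads to mRatBN7.2 with STAR (2.7.10a in the submitters' processing notes) and made the deposited raw counts per gene with Salmon 1.9.0 on Ensembl genes, without normalization or pooling. featureCounts 2.0.1 is also named there, without a role. The annotation release, the use of the molecular identifiers in the adapters and the way that estimates became whole counts were not given in the sources used here.

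Libraries were grouped by their labels. Every comparison used only the 6 libraries of its groups and was fitted in R 4.3.3 with edgeR 4.0.16 (TMM scaling, filterByExpr, quasi-likelihood test, Benjamini-Hochberg adjustment over all genes tested), and a gene was called at an adjusted p under 0.05 with more than 2-fold change. CPM used TMM-scaled totals (TMM factors 0.9476 to 1.077). SE is the absolute log2 fold change over the root of F. Where a group had 0 counts in all libraries, the fold is a bound against 3 counts per library. Where it had at most 3 counts in each, it is the ratio of scaled counts with an exact 95% interval, which covers counting error only. DESeq2 1.42.0, other scalings, filters, a replicate block and leaving out each library were alternatives. The fits were tested on simulated data. Plots used Python 3.11.15 and matplotlib 3.10.9.

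Members were found by symbol. Named with values were members called in Model vs Sham, rt-PA vs Model or rt-PA+Acu vs rt-PA, and, whatever their result, Il1a, Il1b, Il1rn, Il1r1, Il1r2, Il1rap, Il18, Il18bp, Il33, Il1rl1, Il6, Il6r, Il6st, Il10, Il10ra, Il10rb, Il4, Il4r, Il13ra1, Il15, Il15ra, Il16, Il34, Il1rapl1 and the 5 members with the highest mean CPM. Members in no fit were named as too low to test. Other members named, such as Il12b, Il21r, Il17a, Il3ra and Il11ra1, were chosen after their values were seen. The members and lists were chosen with earlier results of these data known. Levels are not compared between genes, as transcript lengths of the authors' annotation were not used here. Promoter windows and gene order come from RefSeq (GRCr8), which is not the build of the counts.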

Additional observations from a re-analysis of the deposited data

How the results depend on the processing

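Across 142 gene and comparison values and 1803 recomputed values, 1722 kept their direction and side of the threshold, 38 lost a call, 8 gained one and 35 changed sign, of which 0 were called values. Requiring at least 10 counts in every library left 9 interleukin genes called for Model vs Sham, 10 for rt-PA vs Sham and 12 for rt-PA+Acu vs rt-PA, since genes near 0 in 1 group are then not tested. Over all genes, that setting called 2253 of 11943, 2358 of 12076 and 1657 of 12103 tested genes in these comparisons. Without a fold threshold, rt-PA+Acu vs Sham gave 2 calls, Il7r being added. Leaving out 1 library gave 20 to 22 calls for Model vs Sham and 0 to 0 for rt-PA vs Model. For rt-PA+Acu vs rt-PA it gave 17 to 22, for rt-PA+Acu vs Sham 0 to 2 and for rt-PA vs Sham 21 to 26. Calls lost in this way were Il15ra, Il2rg, Il6r and Il1rap in Model vs Sham, and Il16, Il18, Il18rap and Il33 in rt-PA+Acu vs rt-PA. In rt-PA+Acu vs Sham, Il13ra1 was lost without any 1 Sham library, and Il33 was added without rt-PA+Acu replicate 1. The cause was not tested.

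Over all genes, DESeq2 called 74 in rt-PA vs Model where edgeR called 0, and 422 in rt-PA+Acu vs Sham where edgeR called 263. One fit over all 12 libraries called 2 in rt-PA vs Model. Without a fold threshold, Model vs Sham had 6951 genes and rt-PA vs Sham 7127, while rt-PA+Acu vs rt-PA had 4522 and rt-PA+Acu vs Sham 651. Scaling by library size alone moved the median of all genes in rt-PA vs Sham to 0.149 on the log2 scale and added Il17rc to the calls there.

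The labels give each group the same replicate numbers. Correlations between same-numbered libraries were -0.121 to 0.146, and a library correlated best with its own number in 6 of 15 cases, including all 3 in Model vs Sham. With so few libraries per group, these values cannot tell whether same-numbered libraries shared more than a number. With the replicate block, 20 interleukin genes were called for Model vs Sham, Il15ra being lost, and 19 for rt-PA+Acu vs rt-PA, with Il16 and Il18 lost. The block left 0 calls for rt-PA vs Model, 1 for rt-PA+Acu vs Sham and 23 for rt-PA vs Sham. With 3 rats per group and totals near the range given, genes under a few counts per library were limited by depth.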
